A study of Mus musculus with 18 samples.

Results

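The 10 genes described here encode nucleic acid sensors of the innate immune system and the signalling axis behind them that ends in the transcription factors Irf3 and Irf7. They were named by their roles: the DNA sensor Mb21d1 (cGAS), the RNA sensors Ddx58 (RIG-I), Ifih1 (MDA5), Dhx58 (LGP2) and Tlr3, the adaptors Tmem173 (STING) and Mavs, the kinase Tbk1, and Irf3 and Irf7. They are 10 of the 35275 genes listed in the deposited table, and all 10 were among the 13869 genes tested. Levels are in FPM, the depth-normalised fragment counts that were deposited. Each gene was at 0.5 FPM or more in all 18 libraries, except Irf7, which was at or above that value in 17. The genes were selected on earlier results of these libraries as well as by role: interferon-stimulated genes stood, by log2 change, among the largest changes between control cells in the 2 media and between MUNC genomic and control cells after differentiation. Comparisons that involve control or MUNC genomic cells in differentiation medium are therefore given as a description, with their error and with no p-value. Control cells in growth medium also entered the first of these changes. The p-values printed for comparisons against them are thus not independent of the choice of the genes.

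The 18 libraries are poly(A) RNA from C2C12, a mouse myoblast line whose stock is labelled PAX7 NEG, in 6 groups of 3 biological replicates. Control cells were compared with cells overexpressing MUNC, a long noncoding RNA from the region upstream of Myod1, either in its spliced form (MUNC spliced) or from its genomic sequence (MUNC genomic). Each of the 3 kinds of cell was collected in growth medium (GM, 20% fetal bovine serum, about 80% confluent) and after 3 days in differentiation medium (DM3, 2% horse serum), in which myoblasts leave the cell cycle and fuse. How the overexpressing cells were made, and whether each is a clone or a pool, is not given in the sources used here. The groups follow the titles, and a further label that calls the cells myoblasts or myotubes goes against the title in 9 libraries. The level of MUNC itself was not analysed here. The p-values measure the spread between these 3 replicates per group. The myogenic factors Myod1 and Myog were close to 0 in control cells, at 0.0285 ± 0.0493 and 0.0287 ± 0.0354 FPM in GM and at 0.0993 ± 0.112 and 0.344 ± 0.132 FPM in DM3 (SD, n = 3). In DM3 they were at 28.6 ± 21.5 and 106 ± 104 FPM in the spliced line and at 18.4 ± 3.99 and 9.70 ± 4.40 FPM in the genomic line. Changes from GM to DM3 are called differentiation below after the medium.

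Cytosolic double-stranded RNA is bound by the helicases RIG-I and MDA5, which signal through MAVS on mitochondria, and cytosolic DNA is bound by cGAS, whose cyclic dinucleotide product activates STING. TLR3 reads double-stranded RNA in endosomes through the adaptor TICAM1. These routes meet at the kinase TBK1, which phosphorylates IRF3 and IRF7 so that they switch on type I interferon genes. Interferon then acts through factors that include STAT2 and IRF9 on genes with an interferon-stimulated response element, among them those for several of the sensors and for IRF7, while IRF3 is made at a steady level in most cells.

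RefSeq promoter windows of 300 bases (250 before to 50 after the start, build GRCm38.p6, the same build as the mm10 of the submitters' processing notes) were found for 8 of the 10 genes. The 4 windows below are shown because they set side by side the RNA sensor pair Ddx58 and Ifih1, whose levels parted in MUNC genomic cells, and the pair Irf3 and Irf7, the steadiest and the most variable of the transcription factors. Each reads 5′ to 3′ along the gene, and capitals mark the core of the interferon-stimulated response element, taken as GAAA, any 2 bases, then GAAA, searched on both strands.
Ddx58: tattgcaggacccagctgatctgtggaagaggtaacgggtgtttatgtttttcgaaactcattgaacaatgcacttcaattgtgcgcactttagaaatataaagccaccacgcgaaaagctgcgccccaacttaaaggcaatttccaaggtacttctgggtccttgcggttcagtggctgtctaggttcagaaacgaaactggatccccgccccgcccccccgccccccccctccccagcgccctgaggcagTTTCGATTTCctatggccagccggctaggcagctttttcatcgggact
Ifih1: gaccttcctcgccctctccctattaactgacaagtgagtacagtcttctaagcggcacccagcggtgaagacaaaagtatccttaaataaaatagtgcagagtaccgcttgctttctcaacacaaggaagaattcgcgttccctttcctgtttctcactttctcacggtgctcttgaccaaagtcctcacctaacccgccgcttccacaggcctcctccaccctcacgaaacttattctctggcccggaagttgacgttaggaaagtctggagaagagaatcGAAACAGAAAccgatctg
Irf7: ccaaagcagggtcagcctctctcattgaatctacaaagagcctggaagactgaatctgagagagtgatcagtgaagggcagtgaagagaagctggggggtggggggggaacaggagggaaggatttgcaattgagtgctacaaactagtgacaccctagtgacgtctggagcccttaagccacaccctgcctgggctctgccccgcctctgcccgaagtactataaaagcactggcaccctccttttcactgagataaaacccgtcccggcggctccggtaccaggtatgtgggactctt
Irf3: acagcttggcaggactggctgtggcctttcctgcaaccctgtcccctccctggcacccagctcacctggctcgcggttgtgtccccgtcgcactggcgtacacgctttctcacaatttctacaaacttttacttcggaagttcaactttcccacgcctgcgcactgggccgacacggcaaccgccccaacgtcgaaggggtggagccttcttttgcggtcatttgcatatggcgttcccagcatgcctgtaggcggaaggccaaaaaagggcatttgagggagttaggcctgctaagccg
The Ddx58 window lies at chr4:40239776-40240075 on the minus strand, that of Ifih1 at chr2:62646206-62646505 on the minus strand, that of Irf7 at chr7:141266375-141266674 on the minus strand and that of Irf3 at chr7:44997398-44997697 on the plus strand. The motif occurred in Ddx58, on the opposite strand 3 to 12 bases after the start, and in Ifih1, on the gene's own strand 33 to 42 bases after the start. It occurred in none of the other 6 windows searched, and 3.44% of all 32851 windows of this length in the table held it. A gamma-activated site, TTC, any 3 bases, then GAA, was found in 0 of the 8 windows and in 8.30% of all, and a kappaB core, GGGA, any 2 bases, then TTCC, was found in Tlr3 alone and in 1.47% of all. The letters and their positions are a description of the windows only.

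In control and MUNC spliced cells the RNA sensors and Irf7 were several times higher after differentiation, the DNA sensor was lower, and Mavs, Tbk1 and Irf3 changed by less than 0.5 in log2. In MUNC genomic cells Ddx58 and Irf7 were higher by smaller margins, and Ifih1, Dhx58 and Tlr3 did not pass the test. In control cells 7 of the 10 genes passed the threshold (Benjamini-Hochberg adjusted p under 0.05 in limma), 6 of them higher in DM3 and 1 lower. Of all genes tested 58.2% passed it in that comparison, 29.6% higher and 28.6% lower, and since the comparison bore on the choice of the genes nothing is read from the count. In MUNC spliced cells 7 of 10 passed, 5 higher and 2 lower, where 35.6% of all genes passed, 17.2% higher and 18.4% lower. The median log2 change of the 10 genes there was 1.04, and that of all tested genes was -0.01. In MUNC genomic cells 5 of 10 passed, 3 higher and 2 lower, beside 51.4% of all genes, 26.3% higher and 25.1% lower, and this count too is only a description.

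**Figure D1:**
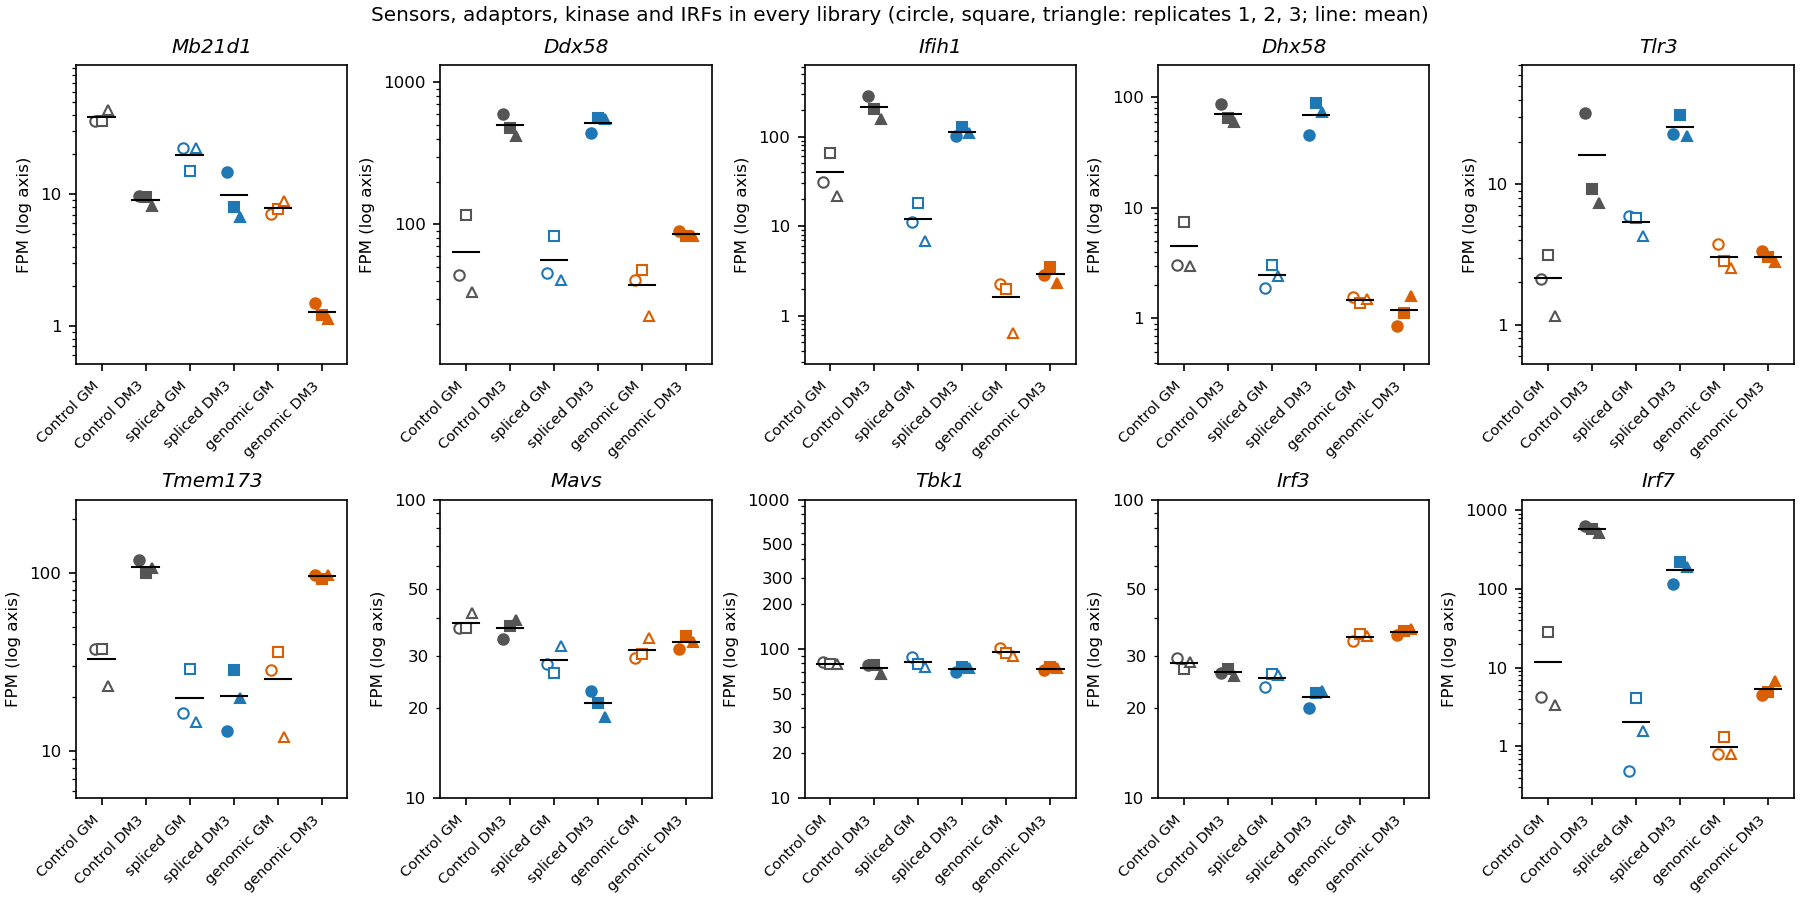
FPM on a log axis (vertical) for each of the 10 genes in the 18 libraries, one panel per gene, with the 6 groups along the horizontal axis, one point per library and a bar at the group mean. Irf7 ran from 0.480 to 626 FPM over the libraries, whereas Tbk1 stayed between 67.9 and 101 FPM.

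In growth medium the spliced form of MUNC went with fewer Ifih1, Mb21d1, Irf7 and Mavs fragments and more Tlr3, which made 5 of 10 genes past the threshold against control, beside 35.5% of all genes. Of all genes 18.2% were higher and 17.3% lower there. The genomic form gave 6 of 10, 2 higher and 4 lower, beside 26.8% of all genes, 12.2% higher and 14.5% lower. In DM3 the MUNC spliced cells differed from control in 4 of 10 genes, all lower, beside 43.3% of all genes, 22.3% higher and 21.0% lower. For MUNC genomic cells against control in DM3, 7 of 10 passed, 1 higher and 6 lower, beside 40.3% of all genes, 19.3% higher and 20.9% lower. All of these comparisons, in GM as in DM3, involve control libraries that bore on the choice of the genes, the last one directly. Nothing is read from their counts. The medians of the 10 genes were -0.50 and -0.54 for the spliced and genomic forms in growth medium and -0.17 and -1.97 in DM3. The comparisons against control share the control libraries, so they are set side by side and not counted as separate evidence.

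The cytosolic DNA sensor Mb21d1 makes the second messenger that activates STING, and it was lower in both overexpressing lines in growth medium. In growth medium it was measured at 36.0, 35.9 and 43.1 FPM in control replicates 1, 2 and 3, 22.3, 14.9 and 22.3 FPM in MUNC spliced and 7.13, 7.66 and 8.91 FPM in MUNC genomic cells, an order of replicates kept throughout. The 3 groups did not overlap, and control was highest and MUNC genomic lowest. MUNC spliced was lower than control by a log2 difference of -0.94 (SE 0.21, limma adjusted p = 0.00302) and MUNC genomic by -2.14 (SE 0.21, adjusted p = 1.11e-06). MUNC spliced in turn exceeded MUNC genomic by 1.21 (SE 0.21, adjusted p = 0.000352). After differentiation Mb21d1 was at 9.66, 9.45 and 8.14 FPM in control, 14.7, 8.05 and 6.74 FPM in MUNC spliced and 1.48, 1.20 and 1.13 FPM in MUNC genomic cells, the last resting on 58 to 80 reads per library. It was thus lower in DM3 than in GM in all 3 kinds of cell with no overlap, and the control and MUNC spliced libraries overlapped in DM3. The log2 change with differentiation was -1.96 (SE 0.21) in control and -1.97 (SE 0.21) in MUNC genomic cells. In MUNC spliced cells it was -0.99 (SE 0.21, limma adjusted p = 0.00218), a call that was lost (adjusted p = 0.0543, the highest over 17 alternatives, from 3.63e-05) when only those 2 groups entered the fit. MUNC genomic cells in DM3 stood -2.15 (SE 0.21) from control. Its exons share 4.87% of their bases with Gm8093 on the opposite strand, and whether counting used strand is not given in the sources used here.

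The RNA helicase Ddx58 senses short double-stranded RNA with a 5′ triphosphate. In growth medium it stood at 43.8, 116 and 33.3 FPM in control, 45.4, 82.5 and 40.3 FPM in MUNC spliced and 40.9, 47.7 and 22.8 FPM in MUNC genomic cells. Replicate 2 was the highest in each of these groups, and the groups overlapped. Neither line differed from control there beyond the spread, with log2 differences of -0.05 (95% interval -0.83 to 0.72, adjusted p = 0.924) for spliced and -0.63 (-1.40 to 0.14, adjusted p = 0.227) for genomic MUNC by limma. In DM3 the levels were 600.1, 473 and 421 FPM in control, 438, 564 and 548 FPM in MUNC spliced and 90.4, 82.9 and 82.5 FPM in MUNC genomic cells. All 3 DM3 groups lay above their own GM libraries, control and MUNC spliced overlapped, and MUNC genomic lay far below both. The rise with differentiation in MUNC spliced cells was 3.24 in log2 (SE 0.36, limma adjusted p = 9.76e-06), a ratio of mean FPM of 9.22. The ratio was 7.75 in control (log2 3.13, SE 0.36) and 2.30 in MUNC genomic cells (log2 1.24, SE 0.36), and the last fell short of the threshold without GM replicate 3 of that line (0.93). MUNC genomic cells differed from control in DM3 by -2.52 (SE 0.36).

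Ifih1, the sensor of long double-stranded RNA, was the sensor that fell furthest in MUNC genomic cells in growth medium. There it stood at 31.2, 66.3 and 21.9 FPM in control, 11.2, 18.1 and 6.85 FPM in MUNC spliced and 2.28, 1.96 and 0.630 FPM in MUNC genomic cells, the last from 30 to 159 reads per library. The groups did not overlap. The difference from control was -1.59 for MUNC spliced (SE 0.37, limma adjusted p = 0.00357) and -3.87 for MUNC genomic (SE 0.37, adjusted p = 6.7e-07), a mean level 24.6 times lower. Leaving out 1 library gave ranges of -1.93 to -1.15 and of -4.21 to -3.44. MUNC spliced exceeded MUNC genomic by 2.29 (SE 0.37, limma adjusted p = 0.000158). In DM3 it was at 285, 206 and 156 FPM in control, 102, 129 and 109 FPM in MUNC spliced and 2.85, 3.49 and 2.30 FPM in MUNC genomic cells. Again no groups overlapped, and MUNC genomic cells in DM3 stayed below every control and MUNC spliced library of either medium. Differentiation raised it by 3.21 in MUNC spliced cells (SE 0.37, limma adjusted p = 1.31e-05). The change was 2.51 (SE 0.37) in control and 0.62 (95% interval -0.17 to 1.40) in MUNC genomic cells. In DM3 the genomic line stood -5.77 (SE 0.37) from control, a mean 74.8 times lower, and the spliced line -0.89 (SE 0.37), which passed the threshold only with the replicate block or with those 2 groups alone in the fit.

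Ddx58 and Ifih1 act through the same adaptor, and their levels per kilobase of exon moved apart in the overexpressing lines. Within a library Ddx58 exceeded Ifih1 by 1.62 to 2.02 times in control GM and by 2.44 to 3.12 times in control DM3. The ratio was 4.68 to 6.81 in MUNC spliced GM and 4.98 to 5.83 in MUNC spliced DM3. It was 20.8 to 41.9 in MUNC genomic GM and 27.5 to 41.5 in MUNC genomic DM3. The ranges of the 3 kinds of cell did not overlap in either medium. They are a description, since some of these groups bore on the choice of the genes.

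**Figure D2:**
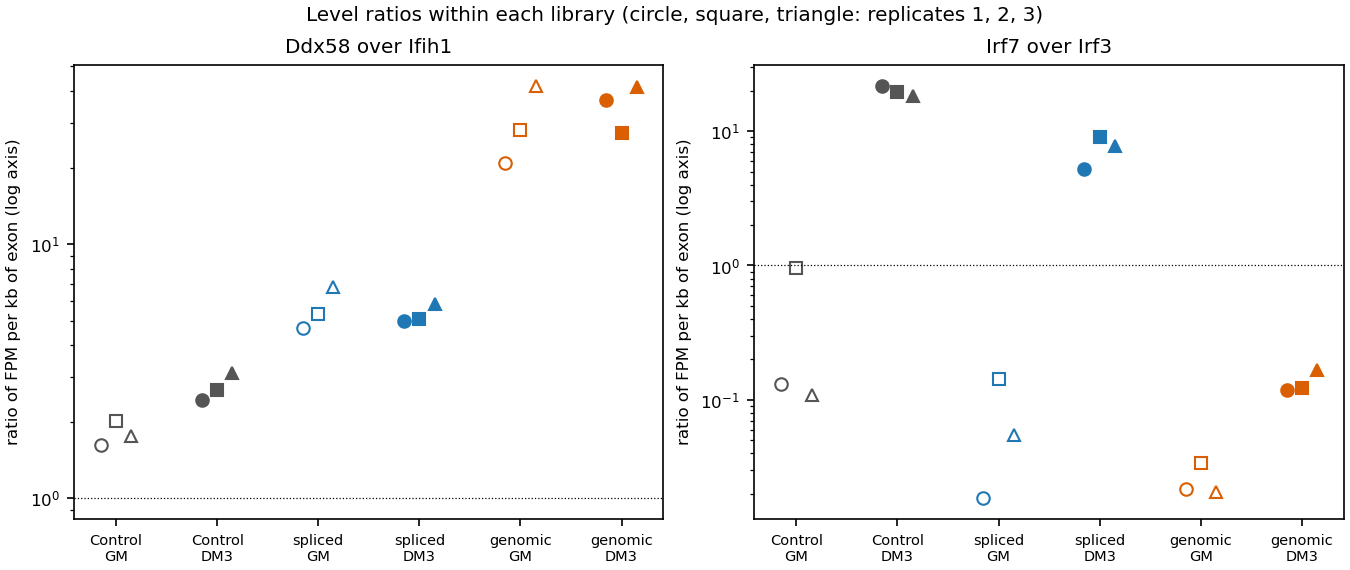
Ratio of FPM per kilobase of exon within each library on a log axis (vertical), for Ddx58 over Ifih1 and for Irf7 over Irf3, with the 6 groups on the horizontal axis and one point per library. The Ddx58 to Ifih1 ratio is 20.8 or more in all 6 MUNC genomic libraries and 6.81 or less in the other 12.

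Dhx58, a helicase without signalling domains that modulates the other two, was measured at 3.04, 7.52 and 3.01 FPM in control, 1.87, 3.04 and 2.43 FPM in MUNC spliced and 1.56, 1.38 and 1.49 FPM in MUNC genomic cells in growth medium. Control replicate 2 was the highest GM library. MUNC genomic was below control by -1.06 in log2 (SE 0.28, limma adjusted p = 0.00925), a difference of -0.70 without that control library and of -0.67, short of the threshold, without replicate 2 of all GM groups. MUNC spliced overlapped control, and its difference of -0.60 (95% interval -1.18 to -0.01) did not pass the threshold in limma (adjusted p = 0.104), though it passed with quantile normalization (-0.82), by DESeq2 (-0.88) and by edgeR (-0.92). After differentiation Dhx58 reached 86.8, 64.8 and 60.0 FPM in control and 45.2, 88.4 and 73.8 FPM in MUNC spliced cells, and was at 0.851, 1.11 and 1.58 FPM in MUNC genomic cells. The first 2 groups overlapped each other and lay far above GM, while the genomic line in DM3 overlapped its own GM libraries. The mean was 28.2 times that in GM in MUNC spliced cells (log2 4.31, SE 0.28, limma adjusted p = 3.58e-08) and 15.6 times in control (log2 3.77, SE 0.28). In MUNC genomic cells the change was -0.20 (95% interval -0.78 to 0.39), and the line stood 59.7 times below control in DM3. Dhx58 shares 4.31% of its exon bases with Dhx58os on the opposite strand.

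The endosomal receptor Tlr3 was the only 1 of the 5 sensors to pass the test as higher than control in MUNC spliced cells in growth medium. Its levels there were 2.10, 3.15 and 1.15 FPM in control, 5.98, 5.76 and 4.29 FPM in MUNC spliced and 3.76, 2.84 and 2.52 FPM in MUNC genomic cells. MUNC spliced lay above both other groups, and MUNC genomic overlapped control. The spliced line was 1.06 above control (SE 0.37, limma adjusted p = 0.0350), and this call was lost without control replicate 1 (1.07), control replicate 3 (0.81), MUNC spliced replicate 1 (0.98) or MUNC spliced replicate 2 (1.01). It was also lost with quantile normalization (0.80), with no filter on low values and without replicate 2 of all GM groups (1.23). In DM3 Tlr3 was at 31.9, 9.19 and 7.29 FPM in control, 22.9, 31.2 and 22.2 FPM in MUNC spliced and 3.34, 3.04 and 2.77 FPM in MUNC genomic cells. Control replicate 1 stood well above the other 2 control libraries and overlapped the spliced line. MUNC spliced cells gained 2.05 with differentiation (SE 0.37, limma adjusted p = 0.000551), control gained 2.22 (SE 0.37), and MUNC genomic cells changed by 0.01 (95% interval -0.77 to 0.79). In DM3 the genomic line stood -1.80 from control (SE 0.37), or -1.18 without control replicate 1. The spliced line stood 0.89 above control (SE 0.37), which passed the threshold with the replicate block and, at 1.51, without that same library. Tlr3 shares 7.32% of its exon bases with Gm45542 on the opposite strand.

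Of the adaptors, Tmem173 passes the signal of cGAS to TBK1. In growth medium it stood at 37.5, 37.3 and 23.2 FPM in control, 16.3, 29.0 and 14.6 FPM in MUNC spliced and 28.6, 36.1 and 11.9 FPM in MUNC genomic cells, with overlap between all groups. The differences from control were -0.71 (95% interval -1.43 to 0.01, limma adjusted p = 0.115) for spliced and -0.44 (-1.17 to 0.28, adjusted p = 0.377) for genomic MUNC. Without MUNC spliced replicate 2 the former was -1.0 and passed the threshold. In DM3 the lines stood apart, with 117, 99.5 and 107 FPM in control, 13.0, 28.6 and 19.9 FPM in MUNC spliced and 97.5, 92.1 and 97.0 FPM in MUNC genomic cells. MUNC spliced lay below both other groups and overlapped its own GM libraries. Differentiation changed it by 0.03 in MUNC spliced cells (95% interval -0.69 to 0.75, limma adjusted p = 0.956), by 1.72 in control (SE 0.34) and by 2.00 in MUNC genomic cells (SE 0.34). In DM3 the spliced line stood -2.41 (SE 0.34) and the genomic line -0.17 (95% interval -0.89 to 0.55) from control. Among the 10, Tmem173 alone was called higher in DM3 in MUNC genomic cells and not in MUNC spliced cells.

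Mavs, the mitochondrial adaptor of Ddx58 and Ifih1, varied by 2.23 times over all 18 libraries. Its GM levels were 37.2, 37.1 and 41.7 FPM in control, 28.2, 26.3 and 32.4 FPM in MUNC spliced and 29.5, 30.5 and 34.3 FPM in MUNC genomic cells, and both lines lay below control. The spliced line was lower by -0.41 (SE 0.11, limma adjusted p = 0.00848), a call that was lost with only those 2 groups in the fit. Among 17 alternatives this call held in 15. The genomic line stood at -0.29 (SE 0.11, adjusted p = 0.0575), which passed with the replicate block (adjusted p = 0.0301, the lowest over 17 alternatives, up to 0.184) and without replicate 3 of that line (-0.35). In DM3 Mavs was at 34.2, 37.6 and 39.4 FPM in control, 22.9, 20.8 and 18.7 FPM in MUNC spliced and 31.6, 34.8 and 33.4 FPM in MUNC genomic cells. Only the spliced line lay apart, below the other two groups and below its own GM libraries. It fell by 0.46 with differentiation (SE 0.11, limma adjusted p = 0.00406), a call lost (adjusted p = 0.0565, from 0.000903 over 17 alternatives) with only those 2 groups in the fit. The changes were -0.06 (95% interval -0.29 to 0.17) in control and 0.08 (-0.15 to 0.31) in MUNC genomic cells.

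The kinase Tbk1 phosphorylates Irf3 and Irf7 and was the steadiest of the 10, with a highest level 1.48 times the lowest. In growth medium it was at 81.2, 79.2 and 79.2 FPM in control cells, 88.6, 79.6 and 75.5 FPM in the spliced line and 101, 93.5 and 90.1 FPM in the genomic line. The genomic line lay just above both other groups. It exceeded control by 0.24 (SE 0.08, limma adjusted p = 0.0432), and the call was lost without any 1 of 5 of the 6 libraries compared (0.20 to 0.25), all but MUNC genomic replicate 3, and with only those 2 groups in the fit. Among 17 alternatives this call held in 10. MUNC spliced stood -0.22 from MUNC genomic (SE 0.08, adjusted p = 0.0509), which passed with the replicate block (adjusted p = 0.0199, over 17 alternatives 0.0066 to 0.180) and without MUNC spliced replicate 1 (-0.28). In all, that difference passed in 5 of the 17. In DM3 the 9 libraries lay between 67.9 and 78.1 FPM, and the groups overlapped. Differentiation changed Tbk1 by -0.14 in MUNC spliced cells (95% interval -0.32 to 0.04, limma adjusted p = 0.213), by -0.10 in control (-0.28 to 0.08) and by -0.35 in MUNC genomic cells (-0.53 to -0.17).

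Irf3, the constitutive factor of the pair, was at 29.4, 27.1 and 28.6 FPM in control, 23.6, 26.0 and 26.0 FPM in MUNC spliced and 33.7, 35.6 and 34.9 FPM in MUNC genomic cells in growth medium, and the 3 groups did not overlap. MUNC genomic was above control by 0.28 (SE 0.09, limma adjusted p = 0.0234), a call lost without control replicate 2 (0.25), without MUNC genomic replicate 2 (0.27) or with only those 2 groups in the fit. Among 17 alternatives this call held in 13. MUNC spliced was below MUNC genomic by -0.45 (SE 0.09, limma adjusted p = 0.000766). In DM3 Irf3 was at 26.3, 27.1 and 25.7 FPM in control, 20.0, 22.5 and 22.9 FPM in MUNC spliced and 35.1, 36.4 and 36.8 FPM in MUNC genomic cells. The order of the 3 kinds of cell was the same as in GM, with no overlap. Differentiation changed it by -0.20 in MUNC spliced (95% interval -0.39 to -0.02, limma adjusted p = 0.0813), -0.10 in control (-0.28 to 0.09) and 0.06 in MUNC genomic cells (-0.13 to 0.24). In DM3 the genomic line stood 0.44 (SE 0.09) and the spliced line -0.27 (SE 0.09) from control. The latter fell short of the threshold without control replicate 2 (-0.25), without MUNC spliced replicate 1 (-0.21), with library sums set equal (-0.22) or with only those 2 groups in the fit. Irf3 shares 2.56% of its exon bases with Bcl2l12 on the opposite strand.

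Irf7, which interferon itself induces, had the widest range of the 10. In growth medium it was at 4.27, 28.3 and 3.40 FPM in control, 0.480, 4.11 and 1.57 FPM in MUNC spliced and 0.802, 1.33 and 0.798 FPM in MUNC genomic cells, and the lowest library held 19 reads. Replicate 2 was the highest of each group, and control replicate 2 stood far above the rest. MUNC spliced was -1.71 from control (SE 0.54, limma adjusted p = 0.0217) although the groups overlapped, and the call was lost without control replicate 2 (-0.84) or MUNC spliced replicate 1 (-1.28), with no filter on low values, or with only those 2 groups in the fit. MUNC genomic was -2.16 from control (SE 0.54, limma adjusted p = 0.00696), or -1.29 without control replicate 2, and the call was lost with only those 2 groups in the fit. Differentiation took Irf7 to 626, 583 and 510.3 FPM in control, 115, 222 and 193 FPM in MUNC spliced and 4.55, 4.91 and 6.79 FPM in MUNC genomic cells. The 3 groups did not overlap, and each lay above its own GM libraries. The mean rose 86.1 times in MUNC spliced cells (log2 5.99, SE 0.54, limma adjusted p = 1.08e-06). It was 47.8 times higher in control (log2 6.02, SE 0.54) and 5.54 times higher in MUNC genomic cells (log2 1.69, SE 0.54), where the call was lost without DM3 replicate 3 of that line (1.55). In DM3 the genomic line stood -6.49 from control (SE 0.54), a mean 106 times lower, and the spliced line -1.74 (SE 0.54), which fell short without MUNC spliced replicate 1 (-1.46) or by DESeq2 (-1.69). Irf7 shares 1.19% of its exon bases with Phrf1 on the opposite strand.

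The balance of the 2 transcription factors turned over with the medium. Per kilobase of exon, Irf7 over Irf3 was 0.108 to 0.951 in control GM and 18.1 to 21.7 in control DM3. In MUNC spliced cells the ratio went from between 0.0185 and 0.144 to between 5.25 and 8.99. In MUNC genomic cells it went from between 0.0208 and 0.0342 to between 0.118 and 0.168, so that Irf3 remained the more abundant RNA in all 6 libraries. As these are bulk libraries, fewer cells that express a gene and less RNA per cell cannot be told apart.

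**Figure D3:**
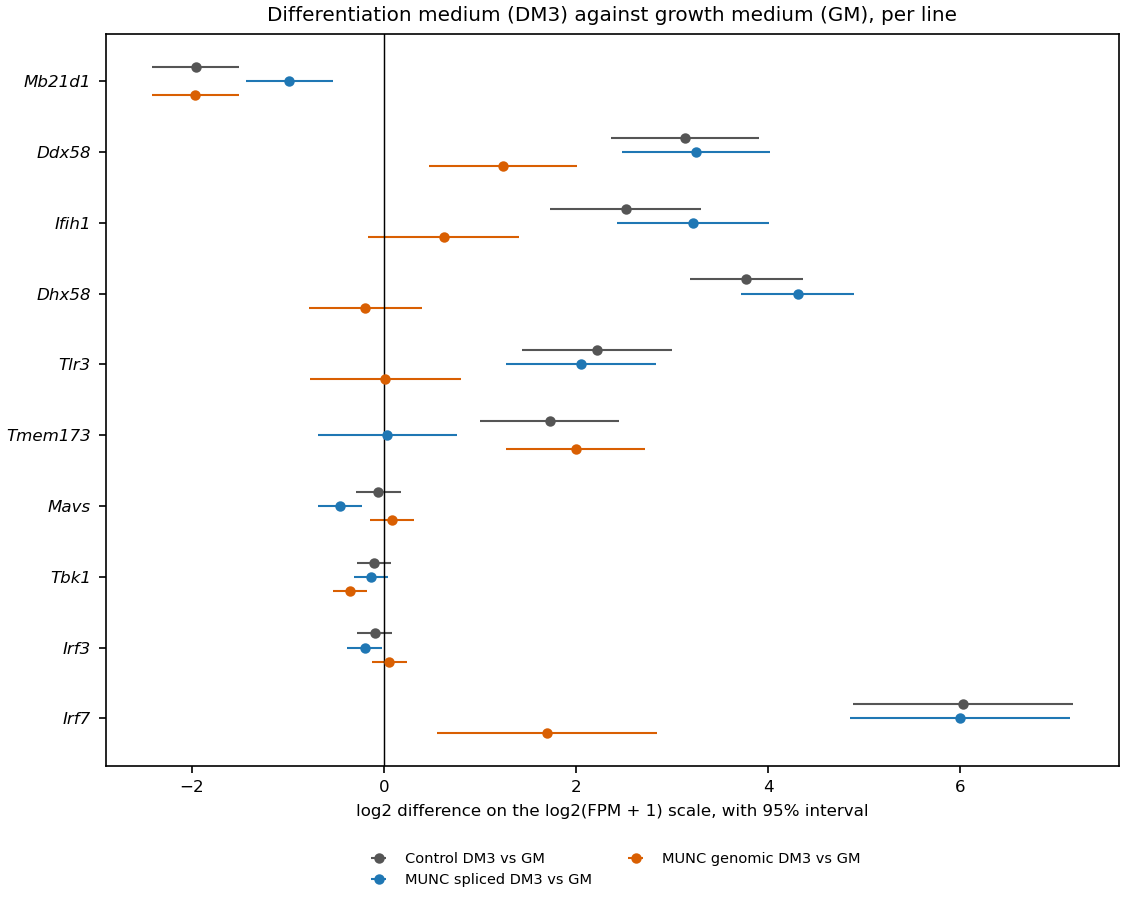
Log2 change from GM to DM3 (horizontal) with its 95% interval for each of the 10 genes (vertical). Control, MUNC spliced and MUNC genomic cells are shown for each gene. The points for Dhx58 stand at 3.77, 4.31 and -0.20 in that order, and those for Tmem173 at 1.72, 0.03 and 2.00.

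The differentiation change itself differed between the overexpressing lines and control for some of the 10. The spliced line's change minus that of control was 0.97 (SE 0.30) for Mb21d1 and -1.69 (SE 0.48) for Tmem173, and these 2 of 10 passed the threshold beside 14.4% of all genes, 7.43% positive and 6.94% negative. For the genomic line 5 of 10 passed, all with a smaller change than control, beside 8.81% of all genes, 3.56% positive and 5.25% negative. Both differences are built from groups that bore on the choice of the genes, so nothing is read from these counts. The differences were -4.33 (SE 0.76) for Irf7, -3.97 (SE 0.39) for Dhx58, -2.20 (SE 0.52) for Tlr3, -1.90 (SE 0.53) for Ifih1 and -1.89 (SE 0.52) for Ddx58. Over 23 alternatives the call held in 23 for Dhx58 and Tlr3, 22 for Irf7, 16 for Tmem173, 12 for Ddx58, 11 for Mb21d1 and 10 for Ifih1. The call for Ifih1 was lost with pseudocounts of 0.1 (-1.60) and 0.5 (-1.77), with no filter, by edgeR (-1.61) and by DESeq2 (-1.62), and that for Ddx58 with no filter and by edgeR (-1.74). The call for Mb21d1 was lost with a pseudocount of 0.1 (1.0), with no filter, with library sums set equal (0.91), with quantile normalization (0.88) and with only the groups compared, and that for Tmem173 with no filter. The call for Irf7 was lost by edgeR (-3.10), and those for Mb21d1 and Tmem173 also without replicate 2 in all GM groups. Leaving out 1 library in turn lost the calls for Ifih1, Ddx58, Mb21d1 and Tmem173 in several fits each, and the differences of Ifih1 and Ddx58 had ranges of -2.33 to -1.56 and -2.42 to -1.53, and those of Mb21d1 and Tmem173 for the spliced line had ranges of 0.67 to 1.18 and -1.96 to -1.40. The genomic line's difference was -0.00 (95% interval -0.65 to 0.64) for Mb21d1 and 0.27 (-0.75 to 1.29) for Tmem173.

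**Figure D4:**
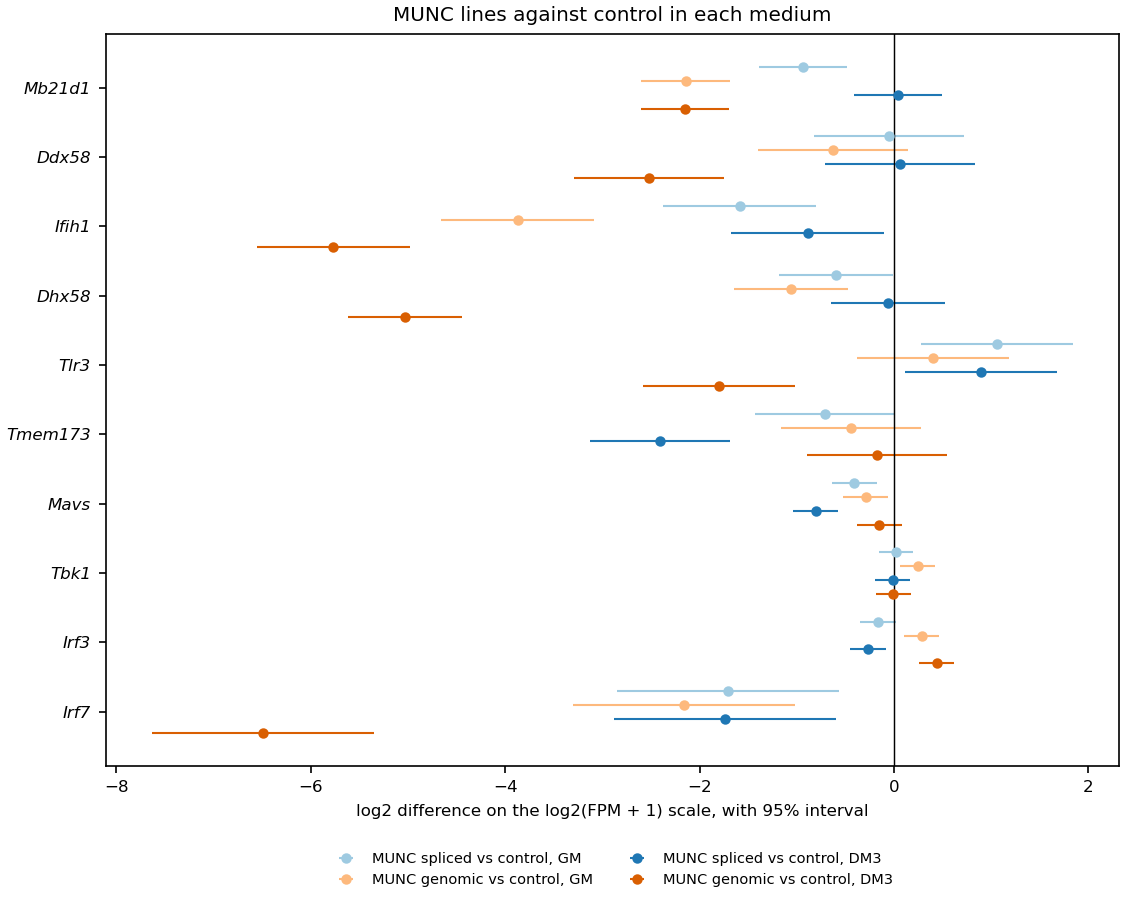
Log2 difference from control (horizontal) with its 95% interval for each of the 10 genes (vertical). MUNC spliced and MUNC genomic cells are shown in GM and in DM3. In DM3 Irf7, Ifih1 and Dhx58 stand at -6.49, -5.77 and -5.03 in the genomic line and at -1.74, -0.89 and -0.06 in the spliced line.

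A direct comparison of the 2 overexpressing lines in growth medium found 3 of the 10 past the threshold, beside 35.8% of all genes, 19.9% higher and 16.0% lower: Mb21d1 and Ifih1 higher and Irf3 lower in MUNC spliced cells. In DM3 9 of the 10 passed, beside 44.2% of all genes, 23.4% higher and 20.8% lower, and since MUNC genomic DM3 bore on the choice of the genes nothing is read from that count. Mb21d1 (2.19), Ddx58 (2.58), Ifih1 (4.88), Dhx58 (4.97), Tlr3 (2.69) and Irf7 (4.75) were higher in MUNC spliced cells as log2 differences. Tmem173 (-2.23), Mavs (-0.66) and Irf3 (-0.71) were lower in them, and Tbk1 was at -0.01 (95% interval -0.19 to 0.17).

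Ranked by FPM per kilobase of exon, the most abundant RNA of the 10 changed with the group. Tbk1 led in all 3 GM groups, at 20.4 ± 0.296 in control, 20.8 ± 1.70 in MUNC spliced and 24.2 ± 1.38 in MUNC genomic cells (SD, n = 3). Behind it in control GM, Tmem173 (11.9 ± 3.00) and Mavs (11.6 ± 0.792) overlapped each other. Mb21d1 (9.29 ± 1.01) came next, below Mavs without overlap, and Ddx58 (9.12 ± 6.38) overlapped both Mb21d1 and Irf3 (8.24 ± 0.339). Tlr3 came last at 0.410 ± 0.192. In control DM3 Irf7 led at 151.7 ± 15.5, ahead of Ddx58 (70.7 ± 13.0) and Tmem173 (39.4 ± 3.27), and Ifih1 (26.4 ± 7.93), Dhx58 (21.5 ± 4.37) and Tbk1 (19.1 ± 1.47) were neighbours within their spread. In MUNC spliced DM3 Ddx58 led at 73.3 ± 9.76, before Irf7 at 46.8 ± 14.6. In MUNC genomic DM3 Tmem173 led at 34.8 ± 1.08 and Tbk1 followed at 18.9 ± 0.466, while Tlr3, Dhx58, Ifih1 and Mb21d1 all lay under 1.

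Among the other genes of the pathway, interferon itself was barely detected. Ifnb1 had 0 to 3 reads per library in control GM, 0 to 5 in the spliced line in GM and 0 to 2 in the genomic line. In DM3 it had 5 to 10 reads in control, 7 to 10 in MUNC spliced and 0 in all 3 MUNC genomic libraries. In the latter, 3 reads would be at most 0.0594 FPM. Of 10 listed target genes of Irf3 and Irf7, 10 were higher in DM3 than in GM in MUNC spliced cells, with a median log2 change of 2.84, beside 17.2% of all genes. In control cells 9 were higher (median 3.87), beside 29.6% of all genes, and in MUNC genomic cells 3 (median 0.75), beside 26.3%. In growth medium 9 of the 10 were lower than control in MUNC spliced cells (median -2.01) and 9 in MUNC genomic cells (median -2.85), beside 17.3% and 14.5% of all genes. These targets belong to the interferon-stimulated genes whose changes bore on the choice. Their counts in comparisons with control cells or MUNC genomic DM3 are only a description, and nothing is read from them. Isg15 is a ubiquitin-like protein of this list. In growth medium it stood at 29.5 ± 22.7 FPM in control. It was at 5.06 ± 3.71 FPM in the spliced line and 1.65 ± 0.843 FPM in the genomic line. Its differences from control in limma were -2.24 (SE 0.43) and -3.33 (SE 0.43), also only a description. In DM3 it was at 456 ± 114, 300.1 ± 53.4 and 7.05 ± 1.02 FPM in the same order (SD, n = 3).

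Stat2 and Irf9, which carry the interferon signal to its target genes, were also lowest in MUNC genomic cells after differentiation. Stat2 was at 521.4 ± 9.0 FPM in control, 383 ± 94.0 FPM in MUNC spliced and 58.8 ± 10.4 FPM in MUNC genomic DM3, and Irf9 was at 142 ± 4.52, 99.8 ± 14.3 and 18.7 ± 3.05 FPM in the same order. In MUNC spliced cells the changes with differentiation were 3.21 (SE 0.35) for Stat2 and 2.87 (SE 0.25) for Irf9, both past the threshold in limma. Irf1, a related factor, and Ikbke, a kinase close to Tbk1, were at similar means in control and MUNC genomic cells in DM3 and lower in MUNC spliced cells. Irf1 was at 155 ± 0.877 FPM in control, 92.9 ± 19.6 FPM in MUNC spliced and 154 ± 21.7 FPM in MUNC genomic DM3, and MUNC genomic stood -0.03 from control (95% interval -0.59 to 0.54). Ikbke was at 27.0 ± 4.31, 16.3 ± 4.76 and 26.4 ± 3.66 FPM, and MUNC genomic stood -0.03 from control (-0.52 to 0.47).

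Counts in the remaining lists are to be read beside the shares of all genes called with differentiation, which were 17.2% higher and 18.4% lower for the spliced line, 26.3% and 25.1% for the genomic line, and 29.6% and 28.6% in control cells. Of 10 tested other sensors, 4 were higher and 2 lower in DM3 in MUNC spliced cells (median -0.02), 1 higher and 3 lower in MUNC genomic cells (median -0.22), and 4 higher and 3 lower in control (median 0.06). Ddx3x and Dhx9, helicases with many tasks and the most abundant of that list, were lower in DM3 in control cells, as 2 of those 3. Of 13 other adaptors and kinases, 4 rose and 1 fell in the spliced line, 3 rose and 2 fell in the genomic line, and 8 rose and 2 fell in control cells. Of 10 tested brakes and nucleases, 2 rose and 4 fell in the spliced line, 1 rose and 5 fell in the genomic line, and 3 rose and 4 fell in control cells. Trex1, the nuclease that clears cytosolic DNA, is listed at 0 in every library (it was named after its values were seen). Exon overlap with other genes was not checked for Trex1, so this 0 is not read as absence of its RNA.

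The genes whose level followed each of the 10 most closely over the 18 libraries, by Pearson's r of log2(FPM + 1) among 13868 genes, are given as a description, since the 18 points share 6 groups. For Irf7 they were Irf9 (r = 0.995), Phf11d (0.991) and Ifi35 (0.988). For the sensors they were Dtx3l with Ddx58 (0.995), Slfn8 with Dhx58 (0.993), Parp12 with Ifih1 (0.984), Usp14 with Mb21d1 (0.968) and Usp25 with Tlr3 (0.966). For the rest they were Disp2 with Tmem173 (0.971), Wnt7b with Irf3 (0.968), Camkk1 with Mavs (0.946) and Cdc14b with Tbk1 (0.934).

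The libraries held 38416702 to 68788327 reads, and replicates correlated at 0.980 to 0.996 against at most 0.975 between groups. Replicate 2 was the highest GM library for Ddx58 and Irf7 in all 3 kinds of cell. In control GM it was also the highest for Ifih1, Dhx58, Tlr3 and the 10 listed target genes of Irf3 and Irf7. Ifit3 stood there at 15.9, 104 and 5.38 FPM and Isg15 at 19.5, 55.5 and 13.5 FPM in replicates 1, 2 and 3. Control GM replicate 2 thus raised the control GM means of these genes. Of the 8 muscle markers listed, 5 to 7 had a mean of 0.5 FPM or more in each group, with summed levels of 353.6 to 1781 FPM. In the genomic line Des was at 476 ± 145 FPM before and 898 ± 99.5 FPM after differentiation, against means of 24.2 to 77.5 FPM in the other groups. Of 11 blood-cell markers, 10 are in the table. Cd3e and Siglech were at 0 in every library, and the summed level lay between 10.5 and 23.5 FPM, at 21.5 to 23.5 in control DM3 and 15.5 to 17.3 in MUNC genomic DM3. Cd14 carried most of that sum, at 7.77 to 19.7 FPM over the libraries. Cd68 was at 0.784 to 5.41 FPM and Lyz2 at 0.184 to 2.88 FPM. Endothelial markers summed to 0.602 FPM or less outside the MUNC genomic groups, where they reached 3.89 to 7.36 FPM. Cdh5 carried that sum, at 7.14 ± 0.125 and 4.20 ± 0.682 FPM, while Pecam1 stayed at means of 0.0656 to 0.158 FPM and Kdr at or near 0 in every group. Its part in the results was not tested. Fibroblast markers summed to 785.6 to 5835 FPM, nearly all of it Col1a1, whose mean was highest in MUNC spliced (3990 ± 1601 GM, 3738 ± 310.1 DM3) and lowest in MUNC genomic cells (1356 ± 706, 1388 ± 151). Pdgfra had another order, with means of 24.2 ± 4.52 and 26.1 ± 1.04 FPM in MUNC genomic GM and DM3 and 7.24 ± 1.08 and 10.3 ± 1.92 FPM in control. The part of these levels in the results was not tested.

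For each of the 10 genes the authors' deposited tables and limma fell on the same side of an adjusted p of 0.05 in control DM3 against GM and in MUNC genomic against control in DM3. In growth medium Tbk1 and Irf3 (genomic against control) and Irf7 (spliced against control) passed in limma and not in the authors' deposited tables. For MUNC spliced against control in DM3, Ifih1 passed in the authors' deposited table and not in limma, and Irf3 the reverse.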

How the data were processed

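RNA from 18 libraries was sequenced, and per the submitters' processing notes reads were handled with STAR, HTSeq and DESeq2 on build mm10 (versions not given in the sources used here). The deposited values are a signal in FPM, which the values themselves show to be reads divided by a factor per library. The authors' deposited comparison tables give log2 fold changes, p-values and a mean expression score. Whole reads were recovered from the FPM steps (100% of values whole within 0.05 read), which gave 38416702 to 68788327 reads per library. Levels from few reads are less certain.

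The 13869 genes that reached 0.5 FPM in 3 libraries were fitted on log2(FPM + 1) with limma 3.58.1 in R 4.3.3, all 6 groups in 1 model with 12 residual degrees of freedom. Log2 changes are on that scale, which understates changes of low genes, while ratios are of mean FPM. P-values were adjusted over all genes tested in each comparison (Benjamini-Hochberg), and a gene under 0.05 is said to pass the threshold. The fit was tested on simulated data. The rule for named genes took the 10 members and allowed the 2 most abundant genes of each list and a few fixed genes (among them Ifnb1, Ikbke, Stat2, Irf9, Irf1 and Isg15), not all of which are reported here. Marker genes are named to describe the cells. Members and lists were chosen with earlier results of these data known.

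The labels number the replicates within each group without saying that a number marks a shared culture or day. Deviations of same-numbered libraries from their group means correlated above 0.1 in every pair for 6 of the 9 comparisons of 2 groups (0.171 to 0.727), so the replicate block is given there where it changed a call. In the other 3 the lowest correlation was 0.0163. Alternatives were other pseudocounts (0.1 and 0.5), a filter of 1 FPM or none, equal library sums, quantile normalization, only the groups compared, edgeR 4.0.16 and DESeq2 1.42.0 on recovered reads, the block, and leaving out each library. Leaving out replicate 2 of all GM groups was chosen after seeing the data.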

Additional observations from a re-analysis of the deposited data

Results flagged for a closer look

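For 7 genes the change with differentiation differed from that of control cells past the threshold, in a fit whose interaction term compares the 2 changes. Of all genes 14.4% passed for the spliced line and 8.81% for the genomic line. Of 23 alternatives, the call held in 23 for Dhx58 and Tlr3, 22 for Irf7, 16 for Tmem173, 12 for Ddx58, 11 for Mb21d1 and 10 for Ifih1. In MUNC spliced cells the difference was -1.69 for Tmem173, whose mean went from 20.0 to 20.5 FPM there and from 32.7 to 108 FPM in control. For Mb21d1 it was 0.97, with a smaller fall in the spliced line. In MUNC genomic cells the difference was -4.33 for Irf7, -3.97 for Dhx58, -2.20 for Tlr3, -1.90 for Ifih1 and -1.89 for Ddx58, and each of the 5 had a smaller rise than in control or none. These comparisons include the groups that bore on the choice of the genes, so they are given without p-values and nothing is read from the count.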

How the results depend on the processing

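Of 110 gene results (10 genes in 11 comparisons), 60 passed the threshold, where 8.81% to 58.2% of all genes passed by comparison. None of these 60 changed sign under the 10 alternatives on all libraries or with 1 library left out. The comparisons share libraries, and most involve groups that bore on the choice of the genes, so nothing is read from these counts. The sign changed for 21 results, none of which was larger than 0.45 in size in the main fit. After the change of sign, values reached 0.86 (Irf7, below). With library sums set equal, Tmem173 in MUNC spliced DM3 against GM was -0.0017, Ddx58 in MUNC spliced against control GM 0.057, and Tbk1 in DM3 0.031 (spliced against control), 0.022 (genomic against control) and 0.0092 (spliced against genomic). With quantile normalization, control DM3 against GM was 0.050 for Mavs and 0.011 for Irf3, Tlr3 in MUNC genomic DM3 against GM -0.16, Ddx58 in MUNC spliced against control GM 0.012, Mb21d1 and Tbk1 in MUNC spliced against control DM3 -0.026 and 0.0099, Tbk1 in MUNC genomic against control DM3 0.053, and the spliced line's difference in change 0.10 for Tlr3 and 0.21 for Irf7. By edgeR, Tlr3 in MUNC genomic DM3 against GM was -0.017, Tbk1 -0.023 in MUNC spliced against control GM and 0.0063 in MUNC genomic against control DM3, and the spliced line's difference in change 0.017 for Tbk1 and 0.86 for Irf7. By DESeq2 the last was 0.85 and Tbk1 in MUNC genomic against control DM3 0.018. With pseudocounts of 0.1 and 0.5 the Irf7 difference in change was 0.50 and 0.20. Without replicate 2 of all GM groups, Tlr3 in MUNC genomic DM3 against GM was -0.018, Ddx58 in MUNC spliced against control GM 0.16 and the genomic line's difference in change 0.023 for Mb21d1. The cause was not tested.

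Leaving out 1 library gave ranges across 0 for the following. MUNC spliced DM3 against GM: Tmem173 -0.23 to 0.32. MUNC genomic DM3 against GM: Tlr3 -0.080 to 0.14. MUNC spliced against control GM: Ddx58 -0.41 to 0.47 and Tbk1 -0.042 to 0.071. MUNC genomic against control GM: Tmem173 -0.75 to 0.0086. MUNC spliced against control DM3: Mb21d1 -0.27 to 0.24, Ddx58 -0.053 to 0.20, Dhx58 -0.26 to 0.21 and Tbk1 -0.080 to 0.020. MUNC genomic against control DM3: Tbk1 -0.073 to 0.027. MUNC spliced against genomic: in GM Tmem173 -0.72 to 0.038 and Irf7 -0.0096 to 0.88, in DM3 Tbk1 -0.030 to 0.027. Difference in change, spliced line: Ddx58 -0.41 to 0.47, Tlr3 -0.55 to 0.45, Tbk1 -0.10 to 0.027 and Irf7 -0.90 to 0.47. Difference in change, genomic line: Mb21d1 -0.090 to 0.075 and Tmem173 -0.18 to 0.58.

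Counts over all genes moved by over 1.5 times in these cases. MUNC spliced DM3 against GM gave 4933 genes and 3046 with only those groups in the fit. MUNC spliced against control GM gave 4929, and 3240 without replicate 2 of all GM groups. The spliced line's difference in change gave 1993, 1214 with only those groups and 1063 to 2434 leaving out 1 library, with 1063 without control DM3 replicate 3, 1093 without control DM3 replicate 2 and 1203 without MUNC spliced GM replicate 2. That of the genomic line gave 1222, 777 by edgeR and 784 to 1345 leaving out 1 library, with 784 without control DM3 replicate 2. With the replicate block the 2 differences gave 3868 and 2265 genes. For comparisons whose numbers did not pair, the block also brought past the threshold Irf3 in MUNC spliced DM3 against GM (-0.20), Ifih1 in MUNC genomic DM3 against GM (0.62) and Mavs in the spliced line's difference in change (-0.40). Same-numbered libraries correlated best in 37 of 45 pairs. By edgeR the Irf7 difference in change of the genomic line was -3.10 and fell short. Equal library sums raised the share of calls that were higher from 51.3% to 66.1% (spliced line) and from 45.6% to 56.2% (genomic line) against control GM, and lowered it from 51.7% to 41.4% in the spliced line's difference in change, while no scaling moved the median of all genes by over 0.1. In MUNC genomic GM the levels of Ifih1 rest on 30 to 159 reads per library and those of Irf7 on 38 to 79. In MUNC spliced GM those of Irf7 rest on 19 to 224 reads. Such low counts limit their precision.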

Other observations

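Of the pathway lists, the 2 genes below were singled out after their values were seen. The cytosolic DNA sensor Aim2, which leads to the inflammasome and not to Tbk1, went opposite ways in the 2 overexpressing lines. In growth medium it was at 20.9 ± 3.71 FPM in control, 9.01 ± 1.87 FPM in MUNC spliced and 68.3 ± 9.99 FPM in MUNC genomic cells (SD, n = 3), with no overlap. In DM3 it was at 27.4 ± 4.04, 7.36 ± 1.26 and 64.1 ± 1.70 FPM in the same order, and the change with differentiation did not pass the threshold in any of the 3 kinds of cell. Nlrx1, a mitochondrial protein known as a brake on Mavs signalling, had 1 to 4 reads per library in control GM and 1 to 8 in control DM3. It had 209 to 261 reads in MUNC spliced GM, 183 to 280 in MUNC genomic GM, 171 to 268 in MUNC spliced DM3 and 232 to 299 in MUNC genomic DM3, so that all 12 overexpressing libraries lay above all 6 control libraries.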
